A study of Mus musculus with 12 samples.

Results

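The 10 genes examined encode receptors and ligands of T cell costimulation: the OX40 receptor and its ligand (Tnfrsf4, Tnfsf4), the 4-1BB receptor and its ligand (Tnfrsf9, Tnfsf9), the receptor GITR (Tnfrsf18), the receptors ICOS and CD28 (Icos, Cd28), the CD28 ligands CD80 and CD86 (Cd80, Cd86), and CD40 (Cd40). They were taken by name from the 34678 gene symbols measured by bulk RNA-sequencing in 12 mouse tumors, and all 10 were found, each with 1 entry. All 10 also passed the minimum mean level for testing, a mean of 0.1 FPKM over the 12 tumors.

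A T cell that meets its antigen needs further signals to divide and survive. CD28 gives the first of these when it binds CD80 or CD86 on an antigen-presenting cell, and CTLA-4 competes for the same ligands. OX40, 4-1BB, GITR and ICOS are induced or kept after activation and prolong the response, and OX40, GITR and ICOS are also abundant on regulatory T cells. CD40 works in the other direction: it sits on dendritic cells, macrophages and B cells, and its engagement by CD40L on helper T cells raises CD80 and CD86. The tumor necrosis factor family receptors among them signal through TRAF adaptors to NF-kB.

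The tumors grew in C57BL/6 mice from LLC1-shLkb1 cells, a Lewis lung carcinoma line in which a short hairpin RNA knocks down Lkb1 (Stk11). The labels call the source an LKB1-deficient lung adenocarcinoma. The study grafted such cells under the skin or into the left chest, and the paper does not state the site for the sequenced tumors. Mice of both sexes were used in the study, 6 to 8 weeks old at the start. The palbociclib arm received this CDK4/6 inhibitor by mouth at 100 mg/kg on 3 days of each week, the anti-PD-1 arm received the blocking antibody RMP1-14 into the abdomen at 200 µg per mouse 3 times a week, the combination arm received both, and the vehicle arm received control IgG. Tumors were collected after 2 weeks, 3 per arm. All 4 arms carried the knockdown, grafted from 1 cell line into mice with an intact immune system, and no Lkb1-intact tumor is among the samples analysed here. Stk11 itself was at 7.90 to 11.5 FPKM, which cannot be checked against an unmodified line here.

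Values are FPKM, which scales the fragments of a gene to its length and to the library total, and they allow levels of different genes to be compared per length. Differences are given on the scale of log2(FPKM + 0.1), which understates the change of low genes. The libraries differed in depth by a factor of 1.36 from the shallowest to the deepest. Markers of cell types set limits on these mixed tissues. Of the carcinoma genes listed, Krt8 was at 62.0 to 276 FPKM, whereas Epcam was at 0 to 1.81 FPKM, Krt18 at 0 to 5.08 FPKM and Krt19 at 0 to 4.39 FPKM. The B cell gene Ms4a1 did not exceed 0.0294 FPKM, whereas others of the B cell list were higher, such as Cd79a at 0.534 to 2.04 FPKM and Pax5 at 0.145 to 1.49 FPKM. Genes of muscle, fat and skin were present in some tumors: the 6 skeletal muscle genes summed to 149 FPKM in palbociclib replicate 3, 148 FPKM in combination replicate 2 and 53.1 FPKM in vehicle replicate 1. The 6 fat genes summed to 526 FPKM in combination replicate 1 and 202 FPKM in palbociclib replicate 1, and the 6 skin genes to 363 FPKM in palbociclib replicate 2.

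Several of the genes lie close together in the mouse genome (GENCODE M21 annotation of GRCm38, from which gene spans are taken). Tnfrsf4 (chromosome 4, 156013843 to 156016612, plus strand) and Tnfrsf18 (chromosome 4, 156026164 to 156028895, plus strand) are 9.6 kb apart with no protein-coding gene between them. Cd28 (chromosome 1, 60716800 to 60773359), Ctla4 (chromosome 1, 60887000 to 60915832) and Icos (chromosome 1, 60977927 to 61000320) follow one another on the plus strand, with gaps of 113.6 kb and 62.1 kb and no protein-coding gene in either gap. Cd86 (chromosome 16, 36603869 to 36666081, minus strand) and Cd80 (chromosome 16, 38455561 to 38496335, plus strand) share a chromosome but stand 1789.5 kb apart, with 25 protein-coding genes between them. The other 4 members lie at chromosome 1, 161395409 to 161418410 (Tnfsf4), chromosome 2, 165055627 to 165072948 (Cd40), chromosome 4, 150914562 to 150946102 (Tnfrsf9) and chromosome 17, 57105325 to 57107757 (Tnfsf9), all on the plus strand. An antisense transcript shares 27.2% of the exonic bases of Tnfrsf18 (Gm16008, 1.47 to 3.78 FPKM) and a long noncoding RNA on the opposite strand shares 14.9% of those of Tnfsf9 (Gm11110, 3.39 to 7.16 FPKM), and whether the counting used strand is not given in the sources used here, so reads from these pairs cannot be told apart. Camta1 spans Tnfrsf9 on the opposite strand but shares no exonic base with it.

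The RefSeq promoter table (GRCm38.p6) held 4 of the 10 members. The neighbors Tnfrsf4 and Tnfrsf18 and both listed starts of Tnfrsf9 are shown because the first pair was higher in all palbociclib tumors than in any vehicle tumor and Tnfrsf9 was not. Each line gives the 250 bases before the RefSeq start, with the build's coordinates, on the plus strand. Capitals mark matches on either strand to the NF-kB consensus, to the AP-1 motif TGANTCA or to the GAS motif TTCNNNGAA. These starts differ from the GENCODE spans above: the Tnfrsf18 window runs into the span of its gene, and both Tnfrsf9 windows lie within theirs.
Tnfrsf4, chr4:156013445-156013694: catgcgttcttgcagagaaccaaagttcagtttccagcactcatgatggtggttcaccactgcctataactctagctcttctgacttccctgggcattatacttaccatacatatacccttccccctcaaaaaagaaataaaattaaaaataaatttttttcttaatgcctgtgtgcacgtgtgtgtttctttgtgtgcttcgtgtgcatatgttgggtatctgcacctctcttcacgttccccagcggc
Tnfrsf18, chr4:156026072-156026321: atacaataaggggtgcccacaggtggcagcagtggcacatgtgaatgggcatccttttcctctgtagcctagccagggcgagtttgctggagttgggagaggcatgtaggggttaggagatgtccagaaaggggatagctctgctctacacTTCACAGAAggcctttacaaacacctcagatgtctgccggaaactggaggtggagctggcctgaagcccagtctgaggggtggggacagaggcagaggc
Tnfrsf9, upstream start, chr4:150919905-150920154: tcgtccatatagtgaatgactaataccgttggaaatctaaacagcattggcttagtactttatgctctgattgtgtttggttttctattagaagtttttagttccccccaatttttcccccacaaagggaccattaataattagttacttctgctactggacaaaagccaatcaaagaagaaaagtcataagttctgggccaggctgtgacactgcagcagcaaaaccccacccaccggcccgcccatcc
Tnfrsf9, downstream start, chr4:150927749-150927998: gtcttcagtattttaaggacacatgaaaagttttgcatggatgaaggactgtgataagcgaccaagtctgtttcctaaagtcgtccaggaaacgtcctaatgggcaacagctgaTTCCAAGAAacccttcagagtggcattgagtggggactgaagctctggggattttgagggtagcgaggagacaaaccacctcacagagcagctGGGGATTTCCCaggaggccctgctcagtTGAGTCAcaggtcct
The downstream Tnfrsf9 window held overlapping NF-kB matches that begin 43 and 42 bases before the start, an AP-1 match beginning 15 bases before it and a GAS match beginning 136 bases before it. The window of Tnfrsf18 held a GAS match beginning 99 bases before the start, and the windows of Tnfrsf4 and of the upstream Tnfrsf9 start held none of the motifs. The window of Cd80, not printed, held an AP-1 match beginning 42 bases before its start. Of 32851 promoters of this length, 7.25% held the NF-kB consensus, 6.75% the AP-1 motif and 7.02% the GAS motif. A match describes letters only, and no binding was measured.

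The 10 genes differed widely in level. Tnfrsf9, with a mean of 11.6 FPKM over the 12 tumors, and Tnfsf9, with 10.7 FPKM, were the highest, and Tnfrsf9 exceeded its ligand in 4 of 12 tumors. Next came Cd86 at 2.31, Cd80 at 1.65, Tnfrsf4 at 1.16, Cd40 at 1.01, Tnfrsf18 at 0.569, Icos at 0.468, Cd28 at 0.233 and Tnfsf4 at 0.211 FPKM. Between neighbors in this order the ranges over the tumors overlapped in every case but one, Tnfsf9 above Cd86, where the lowest Tnfsf9 value (7.61 FPKM) lay above the highest Cd86 value (4.31 FPKM). Further steps were ordered in most tumors without a gap in range: Cd40 exceeded Tnfrsf18 in all 12 tumors, Icos exceeded Cd28 in all 12, and Cd80 exceeded Tnfrsf4 in 9. The low members rest on few fragments, which could be recovered as whole numbers for 9 of the 10 genes (not for Tnfrsf9). Tnfsf4 had 76 fragments over all 12 tumors and none to 11 in a tumor, Cd28 had 314 in all (10 to 43) and Icos 323 (13 to 48), whereas Cd86 had 2103 (39 to 320) and Tnfsf9 had 2671 (155 to 323).

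Of the 10 members, 3 (Tnfrsf4, Tnfrsf18 and Cd40) were higher in every palbociclib tumor than in every vehicle tumor, a pattern that 12.9% of the 15350 genes tested had.

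**Figure D1:**
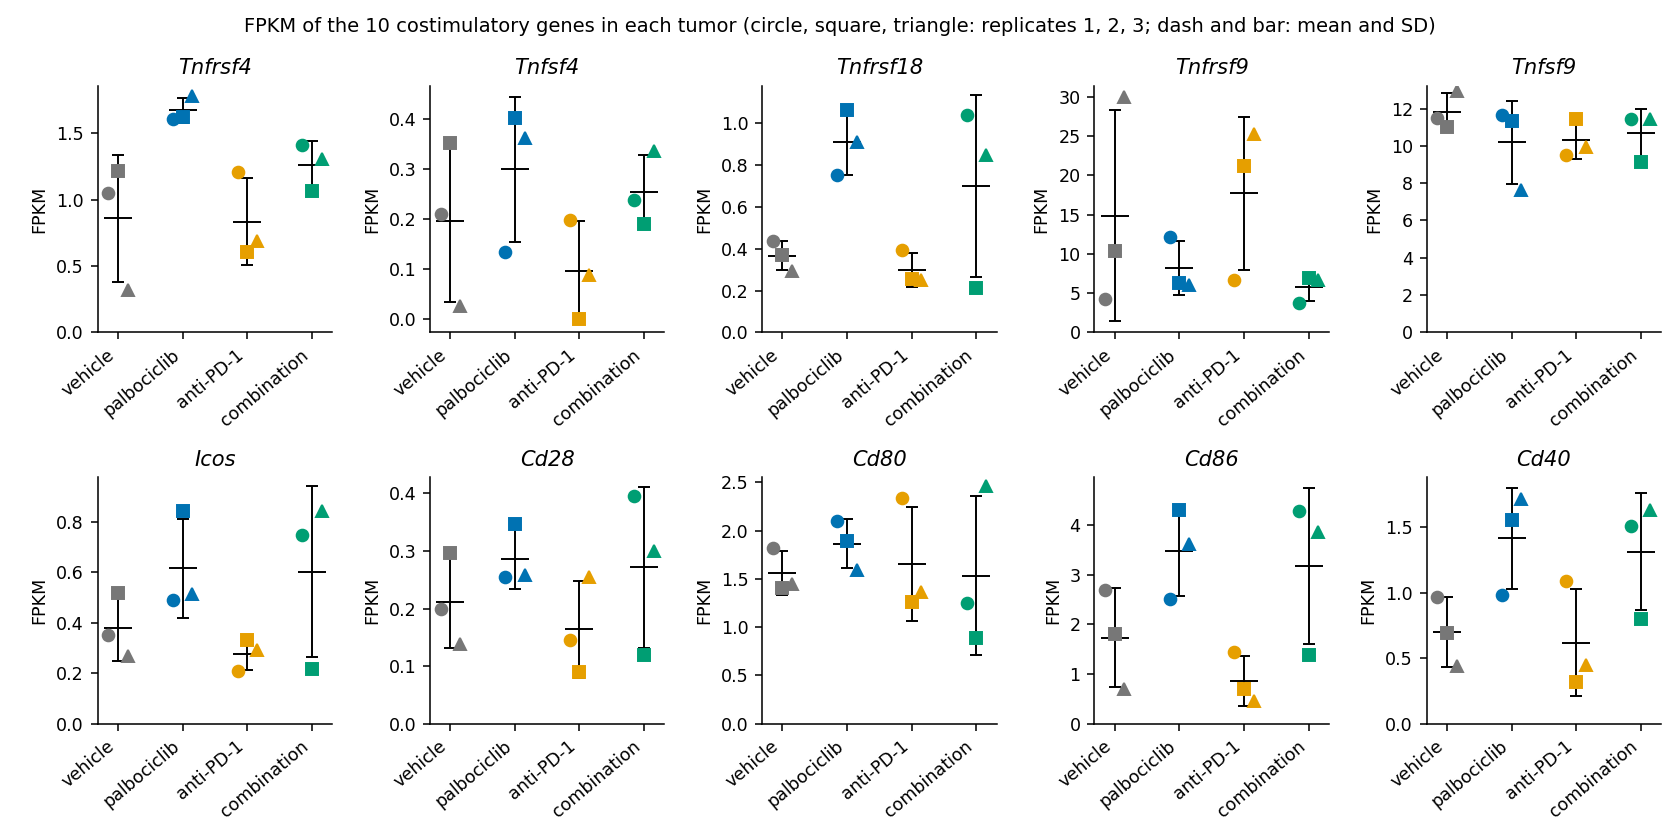
FPKM (linear axes from 0) of each of the 10 genes in each of the 12 tumors by treatment arm, points for single tumors and dash with bar for mean and SD of 3 tumors. Tnfrsf4, Tnfrsf18 and Cd40 are higher in every palbociclib tumor than in every vehicle tumor, Tnfrsf9 is spread from 4.24 to 30.0 FPKM within the vehicle arm, and Tnfsf9 stays between 7.61 and 12.9 FPKM in all arms.

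The main question of the study's design for these genes is whether CDK4/6 inhibition, alone or with PD-1 blockade, shifts them. The palbociclib effect averages the differences of palbociclib to vehicle and of combination to anti-PD-1, and so uses all 12 tumors. Of the 10 members, 8 had a positive difference, led by Cd86, Cd40, Tnfrsf18 and Tnfrsf4, and the median difference of the 10 was 0.71 on the log2 scale against 0.055 for all 15350 genes tested. The members were chosen with earlier results of these data known, so they are not an independent list for comparison with all genes. None of the 10 passed an adjusted p under 0.05 in limma, a call that 0.313% of all genes reached. At an unadjusted p under 0.05, 5 members were higher, beside 14.1% of all genes, and none was lower, beside 6.44% of all genes. The differences of Cd86 (1.43 ± 0.38, SE, limma adjusted p = 0.0999), Cd40 (1.01 ± 0.29, adjusted p = 0.119), Tnfrsf18 (0.96 ± 0.29, adjusted p = 0.125), Tnfrsf4 (0.82 ± 0.27, adjusted p = 0.148) and Icos (0.67 ± 0.29, adjusted p = 0.219) made up these 5. Leaving out 1 tumor gave a limma call among the members in 3 of 12 such fits. Without anti-PD-1 replicate 1, Cd86 (1.63, adjusted p = 0.0427) and Cd40 (1.22, adjusted p = 0.0348) passed, among 772 genes called in all. Without combination replicate 2, Cd86 (1.68, adjusted p = 0.0464) and Tnfrsf18 (1.25, adjusted p = 0.0108) passed, among 262. Without vehicle replicate 1, Cd86 passed (1.62, adjusted p = 0.0441), among 695. With all 12 tumors 48 genes were called, so the calls over all genes grew in these 3 fits too. In bulk tissue, more cells of a type and more RNA per cell cannot be told apart.

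**Figure D2:**
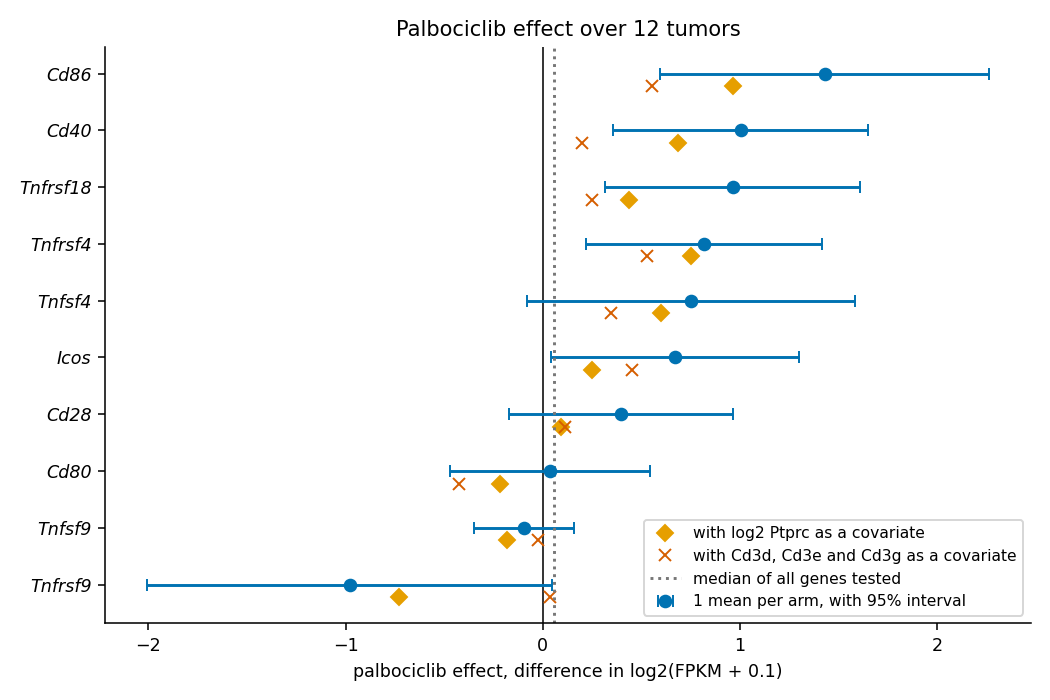
Palbociclib effect of each member as the difference in log2(FPKM + 0.1), with its 95% interval over 12 tumors (blue), and the same difference when log2 Ptprc (diamonds) or the mean of Cd3d, Cd3e and Cd3g (crosses) is added to the fit as a covariate. Cd86, at 1.43, is farthest to the right and Tnfrsf9, at -0.98, farthest to the left, and 9 of the 10 genes lie closer to 0 with the Ptprc covariate or cross it.

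Among the receptors of the tumor necrosis factor family, OX40 and GITR were alike with palbociclib alone, higher in all 3 tumors than in any vehicle tumor. Tnfrsf4 was at 1.05, 1.21 and 0.316 FPKM in vehicle replicates 1 to 3 and at 1.61, 1.62 and 1.78 FPKM in the palbociclib tumors. It was at 1.21, 0.603 and 0.691 FPKM with anti-PD-1 and at 1.41, 1.06 and 1.31 FPKM with the combination. Every palbociclib tumor lay above every vehicle tumor and above every combination tumor, whereas combination and anti-PD-1 overlapped. The share of all genes with palbociclib above combination was not counted. The spread within the palbociclib arm was small, with a mean of 1.67 ± 0.0968 FPKM (SD, n = 3) against 0.859 ± 0.478 FPKM (SD, n = 3) for vehicle. The difference of palbociclib to vehicle was 1.05 ± 0.39 (SE) on the log2 scale (limma unadjusted p = 0.0200, adjusted p = 0.311).

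Tnfrsf18 was at 0.436, 0.370 and 0.294 FPKM in the vehicle tumors and at 0.752, 1.06 and 0.909 FPKM in the palbociclib tumors, without overlap. With anti-PD-1 it was at 0.393, 0.254 and 0.252 FPKM, and with the combination at 1.04, 0.212 and 0.849 FPKM. Combination replicate 2 was thus the lowest of all 12 tumors for this gene and the other 2 combination tumors were among the 4 highest. The difference of palbociclib to vehicle was 1.11 ± 0.41 (SE, unadjusted p = 0.0214, adjusted p = 0.317). All log2 ratios given are differences of log2(FPKM + 0.1) within a tumor, so for low genes they differ from ratios of the FPKM themselves. The log2 ratio of Tnfrsf4 to Tnfrsf18 was 0.89 ± 0.73 (SD, n = 3) with vehicle and 0.82 ± 0.23 (SD, n = 3) with palbociclib. These neighboring genes were therefore in a like mean proportion in both arms, although on this scale the ratio ran from 0.076 in vehicle replicate 3 to 1.90 in combination replicate 2.

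The ligands of this pair were lower in mean over the 12 tumors. Tnfsf4, the OX40 ligand of antigen-presenting and endothelial cells, was at 0.210, 0.352 and 0.0268 FPKM with vehicle, 0.134, 0.402 and 0.360 with palbociclib, 0.199, 0 and 0.0879 with anti-PD-1 and 0.237, 0.190 and 0.335 with the combination. The arms overlapped and the palbociclib effect was 0.75 ± 0.38 (SE, adjusted p = 0.283), on 10 fragments in the anti-PD-1 arm and 23 in the combination arm. No Tnfsf4 fragment was seen in anti-PD-1 replicate 2, and a count of 0 allows up to 3, counting error only. Tnfrsf4 exceeded Tnfsf4 in all tumors, by a difference in log2(FPKM + 0.1) of 1.54 to 2.87. Tnfsf18, the GITR ligand and no member of the set, was at 0 to 0.500 FPKM, with 77 fragments in all 12 tumors and a palbociclib effect of 0.32 ± 0.40 (SE, adjusted p = 0.662). It exceeded Tnfrsf18 in vehicle replicate 1, at 0.500 against 0.436 FPKM.

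The 4-1BB receptor had another pattern than OX40 and GITR. Tnfrsf9 was at 4.24, 10.3 and 30.0 FPKM in vehicle replicates 1 to 3 and at 12.1, 6.26 and 6.03 FPKM in the palbociclib tumors. It was at 6.71, 21.2 and 25.2 FPKM with anti-PD-1 and at 3.69, 6.94 and 6.65 FPKM with the combination. The 3 values above 20 FPKM were all in tumors without palbociclib, yet vehicle replicate 1 was lower than all but 1 of the other tumors and all arms compared overlapped. The palbociclib effect was -0.98 ± 0.47 (SE) on the log2 scale, with a 95% interval from -2.01 to 0.050 (unadjusted p = 0.0602, adjusted p = 0.261). It was -1.45 ± 0.66 for combination against anti-PD-1 (unadjusted p = 0.0506, adjusted p = 0.424) and -0.51 ± 0.66 for palbociclib against vehicle (adjusted p = 0.725). Without vehicle replicate 3 the palbociclib effect was -0.62, and without vehicle replicate 1 it was -1.32.

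4-1BB is known from activated T and NK cells and is also made by some myeloid and endothelial cells, and its level did not follow the T cell genes here. Vehicle replicate 3, with the highest Tnfrsf9, had 0.412 FPKM of the T cell receptor gene Cd3e, and anti-PD-1 replicates 2 and 3 had 0.256 and 0.677 FPKM. Combination replicate 1, with the lowest Tnfrsf9, had the highest Cd3e, 2.26 FPKM. Measured against the mean of Cd3d, Cd3e and Cd3g, Tnfrsf9 stood at a log2 ratio of 4.09 ± 2.07 (SD, n = 3) in the vehicle arm, 2.15 ± 1.03 in the palbociclib arm, 4.58 ± 1.48 in the anti-PD-1 arm and 1.56 ± 1.22 in the combination arm (all SD, n = 3).

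The same 3 tumors had the highest sums of neutrophil genes. The 5 neutrophil genes listed (Csf3r, Cxcr2, S100a8, S100a9, Mmp8) summed to 510 FPKM in vehicle replicate 3, 257 FPKM in anti-PD-1 replicate 2 and 230 FPKM in anti-PD-1 replicate 3, against 13.1 to 83.1 FPKM in the other 9 tumors. Mmp8 overlapped with the other tumors. It was at 6.13, 3.20 and 5.37 FPKM in the 3, but at 4.09 FPKM in anti-PD-1 replicate 1 and 3.42 FPKM in combination replicate 3. S100a9, a calcium-binding protein abundant in neutrophils, was at 370, 197 and 168 FPKM in the same 3 tumors and at 8.04 to 58.7 FPKM elsewhere. The 5 endothelial genes listed summed to 27.5, 18.2 and 28.9 FPKM in these tumors and to 10.5 to 17.0 FPKM elsewhere. Of the 5, Cdh5 (17.1, 11.1 and 18.1 FPKM against 6.07 to 9.63) and Pecam1 (7.42, 5.11 and 7.64 FPKM against 2.60 to 4.15) were highest in these tumors, whereas Kdr, Tek and Emcn overlapped with the other tumors. Nfkbia, which encodes the inhibitor of NF-kB and is itself an NF-kB target, was at 127, 115 and 120 FPKM, but also at 129 FPKM in vehicle replicate 2, where Tnfrsf9 was at 10.3 FPKM. The part of these cell types in the Tnfrsf9 level was not tested. With the T cell marker mean as a covariate, the palbociclib effect on Tnfrsf9 was 0.040 (limma adjusted p = 0.998). With muscle, fat and skin scores as covariates it was 0.38 (adjusted p = 0.9996), so its sign turned in both. With log2 Ptprc as a covariate it kept its sign, at -0.73 (adjusted p = 0.629). The T cell markers themselves differed in mean between the arms.

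**Figure D3:**
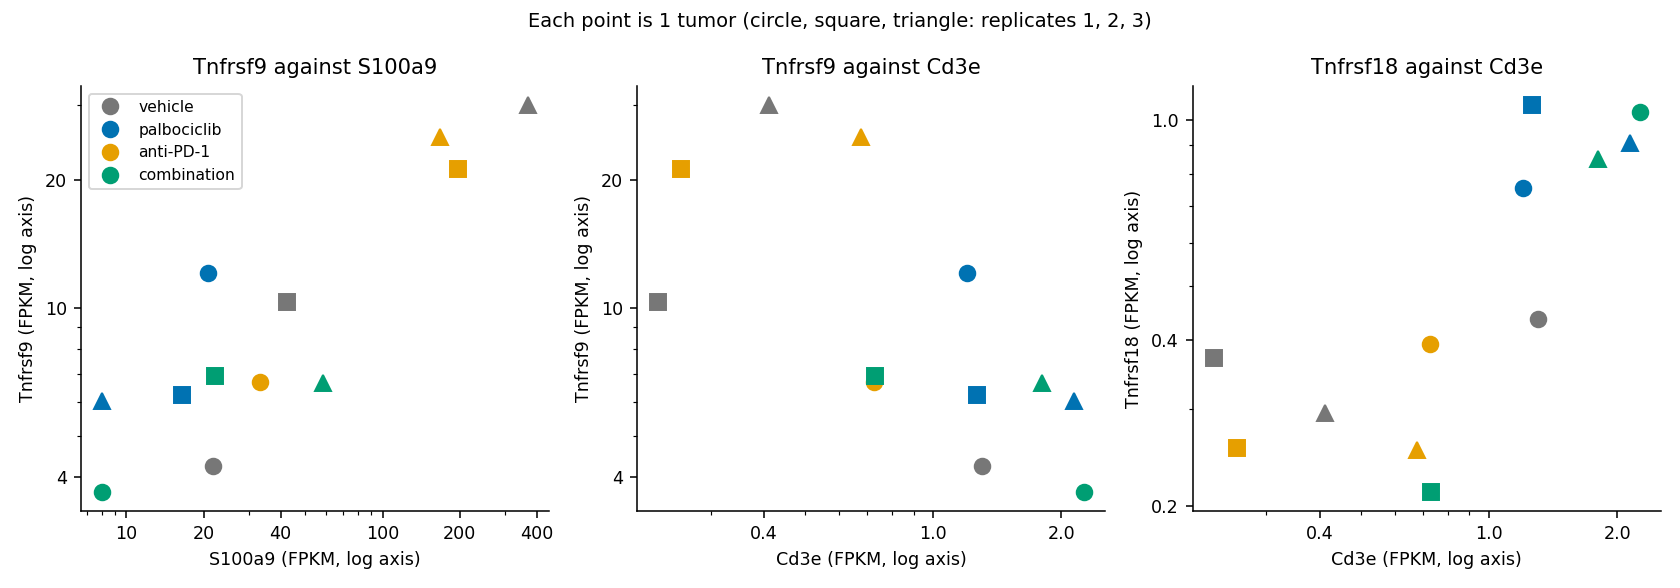
Tnfrsf9 against the neutrophil gene S100a9 (left) and against the T cell gene Cd3e (middle), and Tnfrsf18 against Cd3e (right), all FPKM on log axes, 1 point per tumor, color for the arm and shape for the replicate number. The 3 tumors with Tnfrsf9 above 20 FPKM have S100a9 at 168 to 370 FPKM and Cd3e at 0.256 to 0.677 FPKM. The 5 tumors with the highest Tnfrsf18 (0.752 to 1.06 FPKM), all treated with palbociclib, have Cd3e at 1.20 to 2.26 FPKM. Vehicle replicate 1 has Cd3e at 1.30 FPKM with Tnfrsf18 at 0.436 FPKM.

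Tnfsf9, the 4-1BB ligand, was the steadiest member. It was at 11.5, 11.0 and 12.9 FPKM with vehicle, 11.6, 11.3 and 7.61 FPKM with palbociclib, 9.51, 11.5 and 9.92 FPKM with anti-PD-1 and 11.4, 9.14 and 11.4 FPKM with the combination. The highest value was 1.70 times the lowest, against 8.11 times for its receptor. All arms overlapped, and the palbociclib effect was -0.094 ± 0.12 (SE), with a 95% interval from -0.35 to 0.16 (adjusted p = 0.666). The log2 ratio of receptor to ligand ran from -1.60 in combination replicate 1 to 1.34 in anti-PD-1 replicate 3, and so mirrored the receptor.

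The receptors of the CD28 family were low throughout. Icos, the inducible costimulator, was at 0.349, 0.517 and 0.267 FPKM with vehicle, 0.491, 0.842 and 0.515 with palbociclib, 0.208, 0.331 and 0.292 with anti-PD-1 and 0.746, 0.216 and 0.843 with the combination. Palbociclib and vehicle overlapped, since palbociclib replicate 1 lay below vehicle replicate 2. Combination replicate 2 was again among the lowest tumors while the other 2 combination tumors were among the 3 highest. The palbociclib effect of 0.67 ± 0.29 (SE) had a 95% interval from 0.044 to 1.30.

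Cd28 was at 0.200, 0.296 and 0.138 FPKM with vehicle, 0.254, 0.347 and 0.258 with palbociclib, 0.146, 0.0902 and 0.254 with anti-PD-1 and 0.395, 0.120 and 0.300 with the combination. All arms overlapped, and the palbociclib effect was 0.40 ± 0.26 (SE, adjusted p = 0.394). Relative to the mean of Cd3d, Cd3e and Cd3g, Cd28 stood at a log2 ratio of -1.10 ± 1.16 in the vehicle arm, -2.20 ± 0.70 in the palbociclib arm, -1.34 ± 0.50 in the anti-PD-1 arm and -2.44 ± 0.29 in the combination arm (all SD, n = 3). The ratios to Cd3 genes were in mean lower with palbociclib for all 5 receptors of T cells in the set, with differences of -0.54 for Tnfrsf18, -0.68 for Tnfrsf4, -0.83 for Icos, -1.10 for Cd28 and -2.48 for Tnfrsf9. These ratios are given as a description, with 3 tumors per arm and no test.

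Ctla4, the inhibitory receptor that lies between Cd28 and Icos and shares the ligands of CD28, was not higher in mean with palbociclib. It was at 0.447, 1.39 and 0.375 FPKM with vehicle and at 0.256, 0.419 and 0.376 FPKM with palbociclib, and its palbociclib effect was -0.52 ± 0.38 (SE, adjusted p = 0.447). The vehicle mean rested on replicate 2, which held 62 of the 104 Ctla4 fragments of that arm. Icosl, the ligand of ICOS, was at 2.47 to 4.23 FPKM in all tumors, with a palbociclib effect of 0.080 ± 0.11 (SE, adjusted p = 0.703). All 3 anti-PD-1 tumors and all 3 combination tumors, at 2.47 to 3.17 FPKM, lay below the 3 vehicle tumors, at 3.21 to 3.65 FPKM. The share of all genes with such gaps was not counted. Icosl was higher than its receptor in all tumors.

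Cd86 and Cd80, the ligands of CD28 on antigen-presenting cells, differed from each other. Cd86 was at 2.68, 1.81 and 0.708 FPKM with vehicle and at 2.51, 4.31 and 3.62 FPKM with palbociclib. It was at 1.43, 0.696 and 0.451 FPKM with anti-PD-1 and at 4.28, 1.39 and 3.86 FPKM with the combination. The 4 highest values were all in palbociclib-treated tumors, but vehicle replicate 1 exceeded palbociclib replicate 1, and combination replicate 2 lay just below anti-PD-1 replicate 1. The difference of combination to anti-PD-1 was 1.75 ± 0.54 (SE, unadjusted p = 0.00744, adjusted p = 0.327) and that of palbociclib to vehicle was 1.11 ± 0.54 (SE, adjusted p = 0.381).

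Cd80 was at 1.82, 1.41 and 1.45 FPKM with vehicle, 2.10, 1.90 and 1.60 with palbociclib, 2.33, 1.26 and 1.36 with anti-PD-1 and 1.25, 0.891 and 2.47 with the combination. No arm stood apart, and its palbociclib effect was 0.038 ± 0.23 (SE), with a 95% interval from -0.47 to 0.54 (adjusted p = 0.940). The log2 ratio of Cd86 to Cd80 was -0.023 ± 0.80 in the vehicle arm, 0.84 ± 0.52 in the palbociclib arm, -0.95 ± 0.40 in the anti-PD-1 arm and 0.97 ± 0.63 in the combination arm (all SD, n = 3). All 3 combination tumors, at 0.59 to 1.70, lay above all 3 anti-PD-1 tumors, at -1.41 to -0.67, and how often ratios of other genes part these arms was not counted. Palbociclib and vehicle overlapped, at 0.25 to 1.14 and -0.94 to 0.53. Cd86 was above Cd80 in all 6 palbociclib-treated tumors and in 2 of the 6 others, given as a description.

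Cd40, the receptor through which helper T cells activate antigen-presenting cells, was at 0.969, 0.692 and 0.437 FPKM with vehicle and at 0.981, 1.56 and 1.71 FPKM with palbociclib. It was at 1.09, 0.321 and 0.449 FPKM with anti-PD-1 and at 1.51, 0.801 and 1.63 FPKM with the combination. The palbociclib tumors lay above the vehicle tumors, although palbociclib replicate 1 and vehicle replicate 1 were nearly equal. The difference of palbociclib to vehicle was 0.95 ± 0.42 (SE, unadjusted p = 0.0437, adjusted p = 0.354), and that of combination to anti-PD-1 was 1.06 ± 0.42 (SE, unadjusted p = 0.0263, adjusted p = 0.364). Cd40lg, the T cell ligand of CD40, had no fragment in any vehicle or anti-PD-1 tumor, 5 in the palbociclib arm and 6 in the combination arm. Its mean was below the level for testing, and a count of 0 in a tumor allows up to 3. Cd274, which encodes the PD-1 ligand PD-L1 and also binds CD80, was at 7.95, 9.92 and 13.6 FPKM with vehicle and at 16.1, 17.0 and 15.4 FPKM with palbociclib. It was at 8.60, 9.05 and 8.96 FPKM with anti-PD-1 and at 18.4, 7.79 and 17.1 FPKM with the combination. Combination replicate 2 was thus the lowest of all 12 tumors for Cd274. The palbociclib effect on Cd274 was 0.63 ± 0.20 (SE, adjusted p = 0.134).

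**Figure D4:**
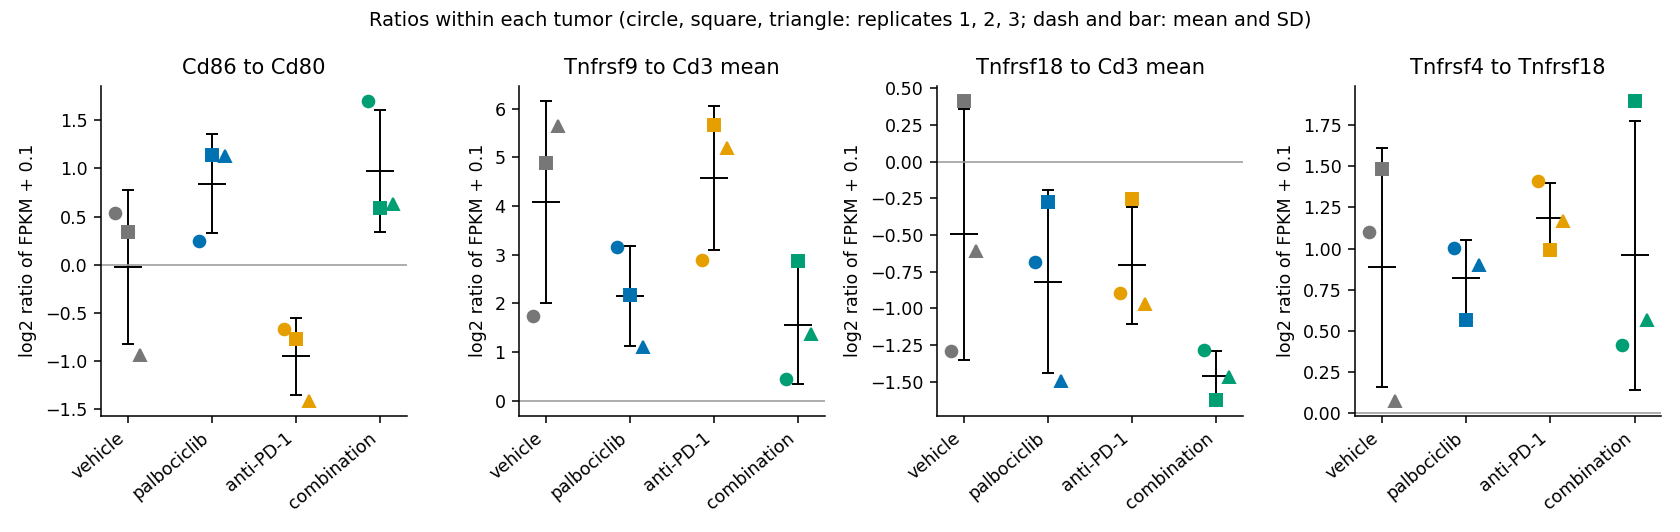
Log2 ratios within each tumor of Cd86 to Cd80, of Tnfrsf9 and of Tnfrsf18 to the mean of Cd3d, Cd3e and Cd3g, and of Tnfrsf4 to Tnfrsf18, by arm, with mean and SD of 3 tumors. Cd86 to Cd80 is above 0 in all 6 palbociclib-treated tumors and below 0 in all 3 anti-PD-1 tumors, whereas Tnfrsf4 to Tnfrsf18 overlaps in all arms.

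The single comparisons gave no call among the members in limma either. In palbociclib against vehicle, 0 of 10 passed an adjusted p under 0.05 (0.143% of all genes did) and 3 had an unadjusted p under 0.05 (13.8% of all genes), namely Tnfrsf4, Tnfrsf18 and Cd40, all higher. In combination against anti-PD-1, 0 passed (0.00651% of all genes) and 2, Cd86 and Cd40, had an unadjusted p under 0.05 (11.8% of all genes), both higher. In combination against vehicle, 0 passed (0.0130% of all genes) and 0 had an unadjusted p under 0.05 (17.0% of all genes), with differences from -0.97 for Tnfrsf9 to 0.86 for Cd86.

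Anti-PD-1 alone left the members without a call. Against vehicle, 0 of 10 passed (0% of all genes) and 0 had an unadjusted p under 0.05 (8.40% of all genes). Their differences ran from -0.89 for Cd86 to 0.48 for Tnfrsf9, 7 of the 10 were negative and the median was -0.24, against -0.033 for all genes. In combination against palbociclib, 0 passed (0.00651% of all genes) and 0 had an unadjusted p under 0.05 (4.52% of all genes), with differences from -0.52 for Tnfrsf18 to 0.084 for Tnfsf9. The interaction, the difference between the palbociclib effect with and without anti-PD-1, gave 0 calls (0% of all genes) and 0 unadjusted (5.73% of all genes). Its 95% intervals were wide, such as -1.02 to 2.32 for Cd86, -3.00 to 1.11 for Tnfrsf9 and -1.66 to 0.74 for Tnfrsf4. These comparisons share arms, so their values are not independent.

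Other genes of the pathway were counted in the palbociclib effect from lists drawn up with earlier results of these data known. None of them passed the adjusted threshold, and the counts below are at an unadjusted p under 0.05. Of all 15350 genes tested, 14.1% were higher and 6.44% were lower at that p. Among 20 other costimulatory genes, 12 were tested and 9 were higher, with a median difference of 0.88, among them Timd4 (1.94 ± 0.36, SE, adjusted p = 0.0522), a phosphatidylserine receptor of macrophages, and Tnfsf8 (1.14 ± 0.27, adjusted p = 0.0836), the CD30 ligand. Among 18 genes of CD28 and T cell receptor signaling, 17 were tested, 13 were higher and none was lower, with a median of 0.66, led by the kinase Lck (1.34 ± 0.28, SE, adjusted p = 0.0736) and the adaptor Lat (1.18 ± 0.27, adjusted p = 0.0804). The 17 TRAF and NF-kB genes, downstream of OX40, 4-1BB, GITR and CD40, had a median of -0.057. None of these 17 was higher and 2 were lower, Nfkbia (-0.89 ± 0.25, SE, adjusted p = 0.112) and Tnfaip3 (-0.65 ± 0.28, adjusted p = 0.221), both inhibitors of NF-kB that NF-kB induces. All these medians stand beside 0.055 for all genes. Calls of the genes named here turned with the samples and the block: Timd4 (adjusted p = 0.0351) and Lck (adjusted p = 0.0479) passed with the replicate block. Without anti-PD-1 replicate 1, Timd4, Tnfsf8, Lck, Lat and Nfkbia passed (adjusted p = 0.0298 to 0.0485), and the same 5 passed without vehicle replicate 1 (adjusted p = 0.0261 to 0.0444). Without combination replicate 2, Timd4, Lck and Lat passed (adjusted p = 0.0257 to 0.0310), and so did Cd274 (adjusted p = 0.0122).

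Markers of T cells, antigen-presenting cells and other tissues were counted in the same way, and none of them passed the adjusted threshold in the fit reported. Their counts too stand beside 14.1% of all genes higher and 6.44% lower. All 8 T cell genes listed were higher at an unadjusted p under 0.05, with a median difference of 1.42, and summed to 1.71 to 6.85 FPKM in the vehicle arm, 7.65 to 15.2 FPKM in the palbociclib arm, 1.69 to 3.96 FPKM in the anti-PD-1 arm and 4.52 to 14.4 FPKM in the combination arm. Of 8 macrophage and monocyte genes, 4 were higher and 1 lower, with a median of 0.79 and sums of 103 to 159, 154 to 218, 84.5 to 185 and 94.4 to 192 FPKM in the same order of arms. Of 9 dendritic cell genes tested, 3 were higher, with a median of 0.75, and of 5 genes of all leukocytes 4 were higher, with a median of 0.56. Of 5 regulatory T cell genes 3 were tested and 1, Ccr8, was higher, while Foxp3 had 126 fragments in all 12 tumors. Of 6 NK cell genes 2 were higher, and of 6 B cell genes 4 were tested and 2 were higher. Of 6 fat genes 4 were higher, of 5 neutrophil genes 4 were lower and of 5 endothelial genes 3 were lower, whereas none of 6 muscle, 6 skin or 4 carcinoma genes passed in either direction. Several markers passed the adjusted threshold when 1 tumor was left out. Without vehicle replicate 1, Ccr8 did (limma adjusted p = 0.0455), as did Cd5, Cd6, Cd83, Fcgr1 and Car3, among 695 genes in all. Ccr2 passed without anti-PD-1 replicate 1 and Coro1a without combination replicate 2. Cd5 and Car3 also passed with the replicate block. The part of these cells and tissues in the members' differences was tested only through the covariates that follow.

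With log2 Ptprc, the gene of the leukocyte antigen CD45, as a covariate, the palbociclib effect was 0.96 for Cd86 (adjusted p = 0.434), 0.69 for Cd40, 0.44 for Tnfrsf18, 0.75 for Tnfrsf4, 0.25 for Icos and -0.22 for Cd80. With the Cd3 genes as a covariate it was 0.55 for Cd86 (adjusted p = 0.997), 0.20 for Cd40, 0.25 for Tnfrsf18, 0.53 for Tnfrsf4 and 0.46 for Icos. With the muscle, fat and skin scores it was 0.88 for Cd86, 0.62 for Cd40, 0.76 for Tnfrsf18, 0.48 for Tnfrsf4 and 0.92 for Icos. The differences of these 5 genes thus kept their sign and were smaller in all but 1 of the 15 values, that of Icos with the tissue scores. The covariates differ in mean between the arms, so cell content and treatment cannot be fully separated here.

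For each member, the 3 genes with the most similar level over the 12 tumors were taken from 11186 or 11187 genes with a mean of at least 1 FPKM, by Pearson's r of log2 values. Cd40 was closest to Fcer1g, Clec4a1 and Cd72 (r = 0.99, 0.99 and 0.98) and Cd86 to Cd83, Lrmp and Aoah (r = 0.98 each), and Fcer1g, Clec4a1, Cd72 and Cd83 are genes of myeloid or B cells. Tnfrsf4 was closest to the lectin gene Clec10a of dendritic cells and macrophages (r = 0.96), then to Mtmr14 and Rasgef1b (r = 0.95 and 0.94). Tnfrsf18 was closest to the leukocyte gene Lsp1 (r = 0.96) and then to Pdcd1lg2 and Selplg (r = 0.96 each). Tnfrsf9 was closest to Mxd1, Cand1 and Snhg12 (r = 0.95, 0.94 and 0.94). The other members were closest to Sec11c (Tnfsf4, r = 0.92), Zbtb33 (Tnfsf9, r = 0.89), Ralgds (Icos, r = 0.96), Ptpn11 (Cd28, r = 0.89) and Fcrlb (Cd80, r = 0.88). Among the members, Cd86 and Cd40 were most alike (r = 0.93), and Tnfrsf9 had negative values with 8 of the other 9, down to -0.85 with Cd86 and Cd40. These are descriptions over 12 tumors that share the arms, and each of the closest genes is the highest of all those compared.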

How the data were processed

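Bulk RNA-sequencing of 12 tumors, 3 per arm, was examined. The authors deposited 1 table of FPKM per tumor for 34745 entries, and the submitters' processing notes name HISAT2 and GRCm38 (mm10). The counting tool, annotation and strand setting are not given in the sources used here. For 67 repeated symbols the entry with the highest mean was kept. A minimum mean of 0.1 FPKM left 15350 genes, whose values as log2(FPKM + 0.1) were fitted by limma (version 3.58.1, under R 4.3.3) with a trend in eBayes, 1 mean per arm and all 12 tumors, at a Benjamini-Hochberg threshold of 0.05. P-values measure the spread between these tumors. The fit was tested on simulated data. Relative depth was taken from ratios of low FPKM values, and a gene's fragments are the smallest whole numbers fitting all 12 tumors within 0.1. Of 2345 low genes, 99.5% came out whole within 0.05. Intervals and limits of fragments cover counting error only.

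The members and gene lists were chosen with earlier results of these data known. Named genes were every member, their partners (Cd40lg, Icosl, Tnfsf18, Ctla4, Cd274), from each other list the genes called or else the 2 with the smallest p, markers used to check the tissue, and the 3 genes most like each member. Cd3e, Foxp3 and Stk11 are given as checks, a choice made with the values in view. Promoters come from RefSeq. Alternatives were a pseudocount of 1 or 0.01, a minimum mean of 1 FPKM or none, TPM, quantile normalization, eBayes without trend, a replicate block, covariates, only the arms compared, and leaving out each tumor. Python 3.11.15 with matplotlib 3.10.9 drew the figures.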

Additional observations from a re-analysis of the deposited data

How the results depend on the processing

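The arms held 3 tumors each of mixed tissue, and Tnfsf4, Cd28 and Icos rest on few fragments; the smallest difference that could be detected was not determined. No member was called in the palbociclib effect in the fit reported or in the 11 alternatives that keep all tumors, and leaving out 1 tumor gave 0 to 2 members called, with 1 without vehicle replicate 1, 2 without anti-PD-1 replicate 1 and 2 without combination replicate 2. In the other 6 comparisons no alternative gave a call. Genes of the companion lists called numbered 0 of 125 in the fit reported, 6 with the replicate block and 0 to 16 when 1 tumor was left out. Whether tumors of the same replicate number form pairs was not tested, and the fit reported assumed no pairing. Correlations of same-numbered tumors between arms ran from -0.21 to 0.45, and 7 of 18 were above 0.1. Of the 12 tumors, 6 correlated best with a tumor of their own number. Pairs of different numbers were not summarized. With the replicate block 129 genes were called in the palbociclib effect, against 48 without it. The count of all genes called was 70 with a filter at a mean FPKM of 1, 11 with any gene above 0, 0 without trend, 0 with each of the covariate sets, and between 0 and 772 when 1 tumor was left out. Values with a turned sign were small or unsupported (all adjusted p-values from 0.676 to 0.9996), and the cause was not tested. With the T cell marker covariate these were Tnfrsf9 (0.040), Cd80 (-0.42), Icosl (-0.029), Tnfsf18 (-0.76), Tnfaip3 (0.062) and Krt19 (-0.22). With the Ptprc covariate they were Cd80 (-0.22), Tnfsf18 (-0.020) and Krt19 (-0.16). With the muscle, fat and skin covariates they were Tnfrsf9 (0.38), Icosl (-0.086), S100a9 (0.26), Cxcr2 (0.16), Adipoq (-0.33), Krt14 (-0.056) and Krt19 (-1.57). With quantile normalization they were Cd80 (-0.077) and Icosl (-0.0012). Leaving out 1 tumor turned Tnfsf9 (-0.15 to 0.0040) and Cd80 (-0.15 to 0.19). Of 226 alternative values of the members, 211 kept their sign and side of the threshold, 5 passed the threshold and 10 turned sign. The effect of Tnfsf4 ran from 0.16 with pseudocount 1 to 1.55 with pseudocount 0.01.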
